A study of Drosophila melanogaster with 12 samples.

Results

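H3K9me3 was compared between KDM4A RNAi and GFP RNAi cells over every repeat of the deposited H3K9me3 enrichment table. The members were all 203 rows of that table, each a repeat family or a part of one, out of 402 rows in the 2 tables of the series. The cells were S2, a long-established embryonic cell line of Drosophila melanogaster. Both groups received double-stranded RNA with a transfection reagent for 5 days, directed against GFP, a sequence absent from fly cells, or against KDM4A. Each group has 2 H3K9me3 ChIP libraries in the labels, out of 12 libraries in all, and each treatment also has 2 input libraries. The table holds 1 mean per treatment, which leaves every difference below without a replicate check or a p-value, and rows do not stand in for replicates. The depth behind the values is unknown, what the enrichment is relative to is not given in the sources used here, and the extent of the knockdown was not measured in the tables.

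H3K9me3 is the histone mark of constitutive heterochromatin, the compact chromatin around centromeres that is rich in satellites and in old transposon copies. It is deposited by methyltransferases such as Su(var)3-9 and Eggless and is bound by the chromodomain of HP1a. KDM4A is a Jumonji-domain lysine demethylase that removes methyl groups from H3K36 in flies and associates with HP1a, while H3K9 demethylation is an activity of the wider KDM4 family. The comparison asked how the mark over repeats differed once KDM4A was depleted. Enrichment values are linear ratios, and log2 ratios are KDM4A RNAi over GFP RNAi throughout. A row was counted as past the fold when its values differed by at least 1.2 times.

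Most repeats had nearly the same H3K9me3 in both treatments, and a few simple-sequence satellites had far less after KDM4A RNAi. Most repeats that carried much of the mark were slightly higher, but AAGGAG and GYPSY8_LTR, which ranked 1 and 2 with GFP RNAi, were lower. Of the 203 rows, 131 were higher (64.5%) and 72 lower (35.5%) after KDM4A RNAi, by a median log2 ratio of 0.04. Only 25 rows (12.3%) passed 1.2 times, of which 10 were higher (4.93%) and 15 lower (7.39%). Scaling each column to its own median, which moves every log2 ratio down by 0.03, left 113 rows higher and 90 lower. At 1.5 times 1 row was higher (0.493%) and 5 were lower (2.46%). The order of the repeats was largely kept, with a Spearman's rho of 0.96 between the treatments across the 203 rows, which share their libraries. Of the 20 rows with the highest GFP RNAi values, 15 were also among the 20 highest after KDM4A RNAi, 75% of each list. AAGGAG, GYPSY8_LTR, MAX_I, ACCORD2_LTR and BAGGINS1 left the highest 20, and the undeca satellite, R1-2_DM, HELENA_RT, G5A_DM and DMRT1B entered it.

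**Figure D1:**
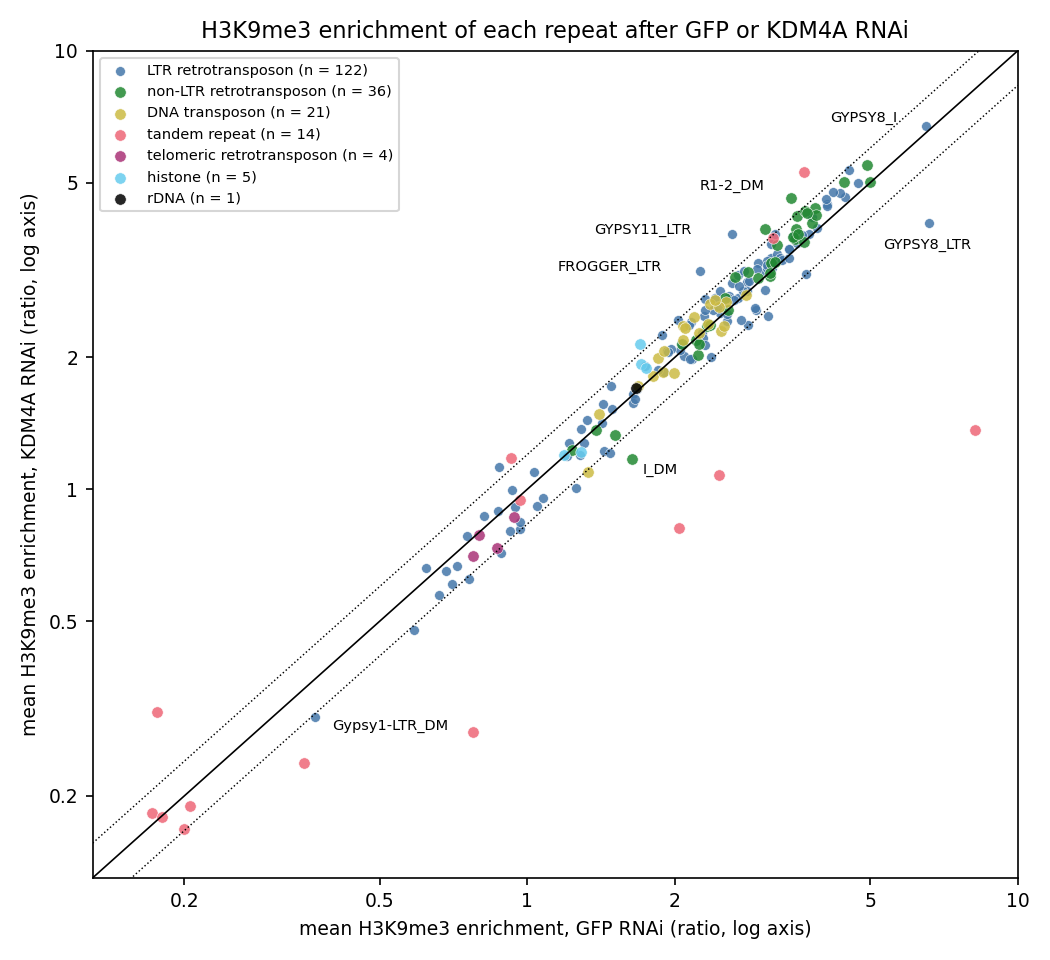
Mean H3K9me3 enrichment of the 203 repeats after GFP RNAi (horizontal) and KDM4A RNAi (vertical), both as ratios on log axes, 1 point per row and 1 colour per type. The solid line marks equal values and the dotted lines a difference of 1.2 times. Most points lie between the dotted lines, and the tandem repeats hold the points farthest below them.

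The rows of all satellites but 1.686 and 1.688 are named by their repeated unit. AAGGAG, a unit of 6 bases with only purines on this strand, was at 8.19 with GFP RNAi and 1.37 with KDM4A RNAi, and moved in rank from 1 to 153 of 203. This 6.0-fold difference was the largest of the table. Next came 3 satellites with units of 5 or 6 bases that contain C, a group chosen after their values were seen. AACAC was at 2.04 and 0.815, or 2.50-fold lower, and moved from enriched to below 1. AAGAC was at 2.46 and 1.08, and AAACAC, already under 1 with GFP RNAi, at 0.774 and 0.280.

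The other satellites with purine-only units did not share the size of the AAGGAG difference. AAGAGG, which has the same base composition as AAGGAG in another order, was at 0.351 and 0.237. AAGAG was at 0.205 and 0.190, AAAAG at 0.172 and 0.183, and the satellite with a unit of 12 bases made of A and G at 0.180 and 0.179. Of these 5 satellites 4 were lower and 1 higher, the median log2 ratio being -0.11, and 4 of the 5 were far below an enrichment of 1 in both treatments. The 12-base satellite and the DOC element differed by only 0.001 between treatments, the last decimal that the table gives, so their direction carries no information.

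The satellites that were higher ranged from A+T-rich to G+C-rich. AATAT, the one unit of only A and T, was at 0.928 and 1.18, and crossed an enrichment of 1. The undeca satellite, with a unit of 11 bases and 63.6% G+C, was at 3.67 and 5.30, and moved in rank from 24 to 4. The dodeca satellite, a centromeric repeat with a unit of 12 bases and 66.7% G+C, was at 3.17 and 3.73. AATAG was at 0.176 and 0.310, a 1.76-fold difference between 2 of the lowest values of the table. Adding 1 to both values brought its log2 ratio from 0.82 to 0.16 and that of AAACAC from -1.47 to -0.47. The 1.686 satellite was at 0.200 and 0.168 and the 1.688 satellite, a repeat of X heterochromatin, at 0.967 and 0.943. Of the 14 tandem repeats, 8 passed 1.2 times, 3 higher and 5 lower, against 12.3% of all rows.

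Transposons, which copy themselves through RNA or move as DNA, made up 179 rows without the telomeric retrotransposons, which are described separately. Of these 121 were higher and 58 lower, the median log2 ratio being 0.05, against 64.5% higher in the whole table. After scaling to the column medians 104 were higher and 75 lower. Past 1.2 times were 16 rows, 6 higher and 10 lower. The number was 12 of 122 for LTR retrotransposons, 3 of 36 for non-LTR retrotransposons and 1 of 21 for DNA transposons, against 12.3% of all rows. LTR retrotransposons resemble integrated retroviruses, with an internal coding part between long terminal repeats, and the table lists many of them as separate internal (_I) and terminal (_LTR) rows.

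The lowest log2 ratio of any transposon row was that of GYPSY8_LTR, a terminal repeat of the gypsy superfamily, at 6.60 with GFP RNAi and 4.04 with KDM4A RNAi. I_DM, the I element of hybrid dysgenesis, followed at 1.63 and 1.17, or 1.40-fold lower. GYPSY3_LTR was at 3.10 and 2.48, and DM1731_LTR, from a copia-superfamily element, at 1.26 and 1.01. The other 6 of the 10 lowest were all between 1.22- and 1.23-fold lower. BLOOD_I (0.882 and 0.715), STALKER2_I (0.587 and 0.477), Gypsy1-LTR_DM (0.370 and 0.302) and MDG1_I (0.759 and 0.623) were below an enrichment of 1 in both treatments. GYPSY5_LTR (1.47 and 1.21) and POGON1 (1.33 and 1.09) were above 1 in both. POGON1, a non-autonomous relative of the pogo DNA transposon, was the one DNA transposon past 1.2 times.

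The highest log2 ratio of a transposon row was that of GYPSY11_LTR, at 2.61 and 3.82, or 1.46-fold higher. FROGGER_LTR, from a copia-superfamily element, was at 2.25 and 3.14, and R1-2_DM, a relative of the R1 element of ribosomal RNA genes, at 3.46 and 4.61. G6_DM, of the Jockey clade, was at 3.06 and 3.92. DM412_LTR was at 0.875 and 1.12, the one transposon row that crossed an enrichment of 1 upward. MAX_LTR, of the BEL/Pao superfamily, was just inside 1.2 times with 2.03 and 2.44. Bica_LTR (3.20 and 3.82), LTRMDG3_DM (1.89 and 2.25), DMRT1B (3.54 and 4.20) and DIVER2_I (4.53 and 5.35) lay just outside it, from 1.18-fold upward. Rows just outside on the lower side were GTWIN_LTR, at 1.18-fold, and BATUMI_LTR, GYPSY7_LTR and DM176.

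**Figure D2:**
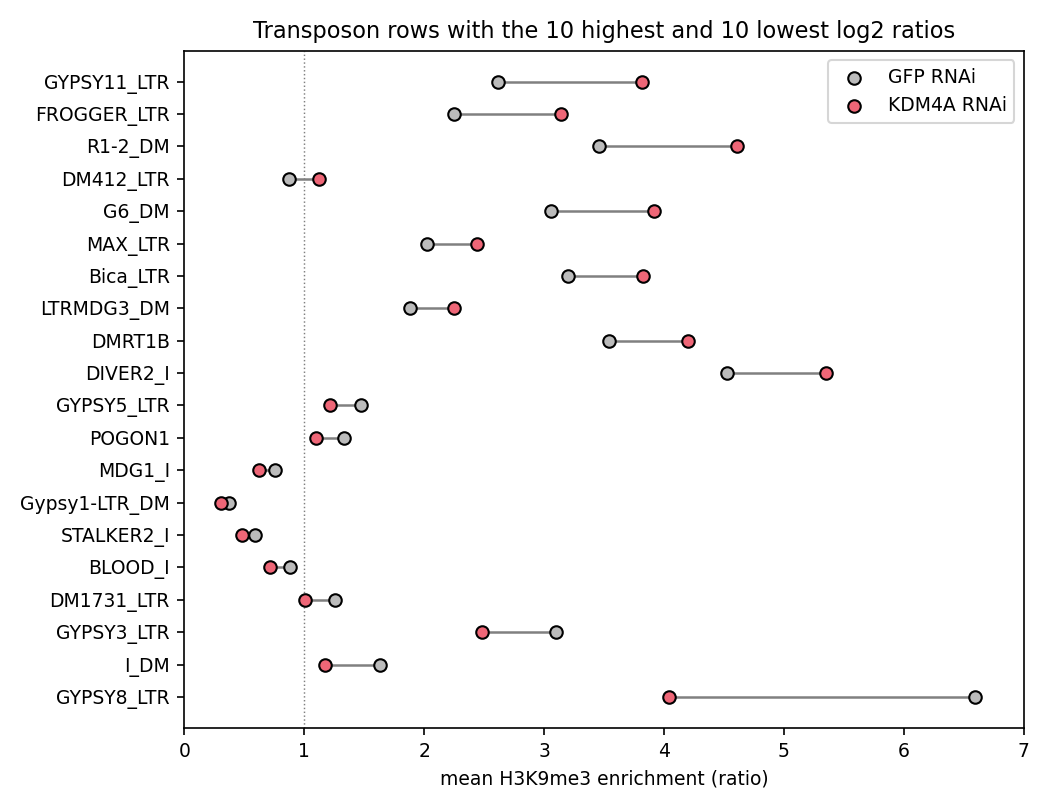
Mean H3K9me3 enrichment (ratio) of the transposon rows with the 10 highest (upper) and 10 lowest (lower) log2 ratios, with GFP RNAi in grey and KDM4A RNAi in red and a dotted line at 1. The rows that were higher lie mostly above 2, and most of those that were lower lie below 2, with GYPSY8_LTR and GYPSY3_LTR as exceptions.

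Within the LTR retrotransposons, the 92 rows of the Gypsy superfamily, the largest group of LTR elements in flies, had 58 higher and 34 lower (49 and 43 after scaling to the column medians) and a median log2 ratio of 0.04. The 14 rows of the BEL/Pao superfamily had 11 higher and 3 lower (10 and 4 after that scaling), with a median of 0.05. Its highest level was at DIVER2_I and its lowest at DIVER_LTR (0.871 and 0.894). The 10 rows of the Copia superfamily had 7 higher and 3 lower, with a median of 0.09 that became 0.02 with 1 value per element. COPIA2I_DM was its most enriched row at 3.23 and 3.44. COPIA_DM_I, the internal part of copia itself, was the least enriched at 0.944 and 0.912.

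The invader elements, a subgroup of the Gypsy superfamily, were higher at 11 of 12 rows, against 64.5% of all rows, with a median log2 ratio of 0.09 and none past 1.2 times. INVADER6_I, the most enriched of them, was at 4.06 and 4.59, and INVADER4_I, with the highest log2 ratio, at 3.14 and 3.62. INVADER4_LTR was the exception with 2.28 and 2.27, and after scaling each column to its own median 10 of the 12 rows stayed higher. The 30 gypsy-named rows were less uniform. Of these 19 were higher and 11 lower, and their log2 ratios ran from -0.71 to 0.55, the whole range of all transposon rows.

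Families known to have multiplied in cultured fly cells had low H3K9me3 and were lower at most rows. Their 16 rows (COPIA_DM, DM297, DM412, MDG1, MDG3, DM1731, BLOOD and ROO) had a median enrichment of 0.988 with GFP RNAi and 0.934 with KDM4A RNAi, against 2.32 and 2.37 for all rows. Of the 16 rows 5 were higher and 11 lower, the median log2 ratio being -0.09, against 35.5% lower in the whole table. DM297_I had the lowest level of the list at 0.661 and 0.573, and DM297_LTR was at 0.682 and 0.651. MDG1_LTR (1.05 and 0.915) and ROO_I (1.08 and 0.953) went from above to below 1. MDG3_DM was at 1.22 and 1.27 and DM1731_I, the most enriched member, at 1.93 and 2.07. The list overlaps the rows of low level described below, which is a feature of its members that moved with the result, and its part in the result was not tested.

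Non-LTR retrotransposons, which have no terminal repeats and insert by copying their RNA directly at the target site, had the highest median enrichment of the transposon types, 3.13 with GFP RNAi and 3.29 with KDM4A RNAi. All 8 G elements, a family of the Jockey clade, were higher, against 64.5% of all rows, with a median log2 ratio of 0.13. Most of them had a mean of both values of 3 or more, where 18 of 21 non-LTR rows were higher. G5A_DM was at 3.69 and 4.30, G2_DM at 3.52 and 3.92 and G_DM at 2.66 and 3.05. G7_DM, the most enriched member, had nearly equal values of 4.99 and 5.01, and turned lower (log2 ratio of -0.02) when each column was scaled to its median.

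The Doc elements belong to the same clade. Of 6 rows 3 were higher and 3 lower (2 and 4 after scaling to the column medians), and their log2 ratios stayed within -0.03 and 0.08. DOC3_DM was at 3.52 and 3.73, DOC4_DM at 3.12 and 3.06 and DOC6_DM at 1.38 and 1.36. The F elements were also close to equal, with FW at 2.36 and 2.37, FW2_DM at 3.12 in both and FW3_DM at 3.67 and 3.65. Over the Jockey clade 17 of 24 rows were higher, near the 64.5% of all rows, and 13 of 24 after scaling to the column medians.

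The R1 clade, site-specific elements and their relatives, had 5 of 5 rows higher, against 64.5% of all rows. Its median log2 ratio of 0.19 was the highest of any transposon list, and all 5 rows stayed higher after scaling to the column medians. All 5 had a mean of both values of 3 or more, where 18 of 21 non-LTR rows were higher. DMRT1A was at 4.93 and 5.50, DMRT1B at 3.54 and 4.20 and DMRT1C at 4.42 and 5.03. R1_DM, which inserts into the ribosomal RNA genes, had the smallest log2 ratio of the clade with 3.57 and 3.82. R2_DM, another element of those genes, was at 2.81 and 3.12, and the ribosomal DNA row at 1.67 and 1.70. The I clade went the other way, with IVK_DM at 2.24 and 2.15 beside I_DM. BAGGINS1, of the LOA clade, was at 3.81 and 4.05, and DMCR1A, of the CR1 clade, at 2.96 and 3.03. ALUII_DM, which is in none of the lists, was at 1.51 and 1.33.

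DNA transposons, which move by excision or by rolling-circle copying, spanned a narrower range than both retrotransposon types. Their log2 ratios ran from -0.28 to 0.18 and their GFP RNAi values from 1.33 to 2.79. Of the 21 rows 15 were higher (12 after scaling to the column medians), against 64.5% of all rows, and the groups within them are small. Of 5 Transib rows, a family related to the RAG recombinase, 4 were higher (3 after scaling to the column medians), led by TRANSIB3 (2.41 and 2.71), and Transib4 was lower (2.52 and 2.36). All 3 Protop rows, relatives of the P element, were higher, with PROTOP at 1.90 and 2.07. PROTOP_B, at 2.34 and 2.38, turned lower (-0.01 on the log2 scale) after scaling to the column medians. The 8 rows of the Tc1-mariner group were divided, 3 higher and 5 lower, with TC1_DM at 2.07 and 2.35, BARI_DM at 2.35 and 2.65, S_DM at 1.99 and 1.84 and S2_DM at 2.48 and 2.30. HOBO was at 1.85 and 2.00, DNAREP1_DM, the abundant Helitron relative, at 1.68 and 1.72 and the foldback element FB4_DM at 1.40 and 1.48.

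**Figure D3:**
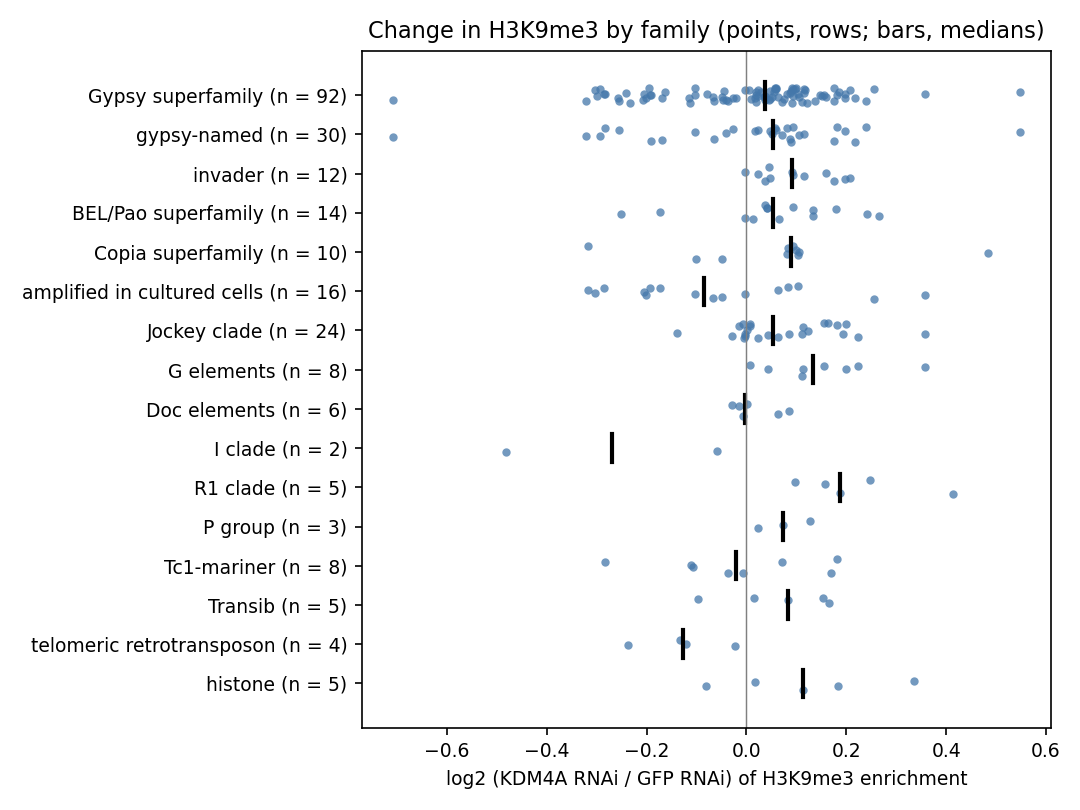
Log2 ratio of H3K9me3 enrichment, KDM4A RNAi over GFP RNAi, for the rows of each family list (points, scattered vertically for display) with their median (bar), beside the telomeric and histone rows. The G elements (7 of 8 after scaling to the column medians) and the R1 clade lie above 0, the telomeric rows wholly below it, and the Gypsy superfamily spans from -0.71 to 0.55.

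The telomeric retrotransposons, which lengthen fly chromosome ends in place of telomerase, were below 1 in both treatments. They were lower at 4 of 4 rows, none past 1.2 times, against 35.5% lower in the whole table. Of all rows with a mean of both values under 1, 23 of 31 were lower. TART_B1 was at 0.868 and 0.736, TART at 0.774 and 0.706, TAHRE at 0.939 and 0.864, and HETA, the HeT-A element, at 0.798 and 0.785. Of the replication-dependent histone genes, repeated in tandem on chromosome 2L, His3 was past 1.2 times at 1.70 and 2.14. His2A was at 1.71 and 1.94, His2B at 1.75 and 1.89, His1 at 1.19 and 1.2 and His4 at 1.29 and 1.22. Scaling each column to its median turned His1 lower, at -0.01 on the log2 scale. Annotation of the Release 6 assembly lists 20 to 23 near-identical copies of each of these genes, so a row cannot be assigned to 1 copy.

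The direction of the difference went with the level of the mark. Rows were put in 5 classes of the mean of both values, and the tandem repeats were left out because they held the extreme ratios. Under a level of 1, 6 of 23 rows were higher, with a median log2 ratio of -0.13. From 1 to 2 the number was 23 of 42, with a median of 0.01, and from 2 to 3 it was 46 of 67, with a median of 0.05. From 3 to 4 it was 36 of 41, with a median of 0.07. At 4 or more 15 of 16 were higher, with a median of 0.13 and GYPSY8_LTR as the exception. With the tandem repeats included 16 of 18 were higher at that level, AAGGAG also being lower. In linear units the median difference went from -0.07 in the lowest class to 0.40 in the highest. Scaling to the column medians lowers every log2 ratio by 0.03, which is more than the median of the class from 1 to 2.

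A similar order was seen within the LTR and the non-LTR type. LTR rows were higher at 6 of 19 under a level of 1 and at 33 of 36 at 3 or more. Split by part the order was less regular. Internal rows were higher at 2 of 9 under 1, 9 of 11 from 1 to 2, 9 of 14 from 2 to 3 and 23 of 23 at 3 or more. For terminal rows the numbers were 4 of 9, 4 of 13, 19 of 27 and 9 of 12. Non-LTR rows were higher at 0 of 4 from 1 to 2 and at 18 of 21 at 3 or more. For DNA transposons, which reach only from 1 to 3, the numbers were 5 of 8 below 2 and 10 of 13 above. Rows of high level share their libraries and the scaling of the table with rows of low level, and the part of either in this order was not tested.

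**Figure D4:**
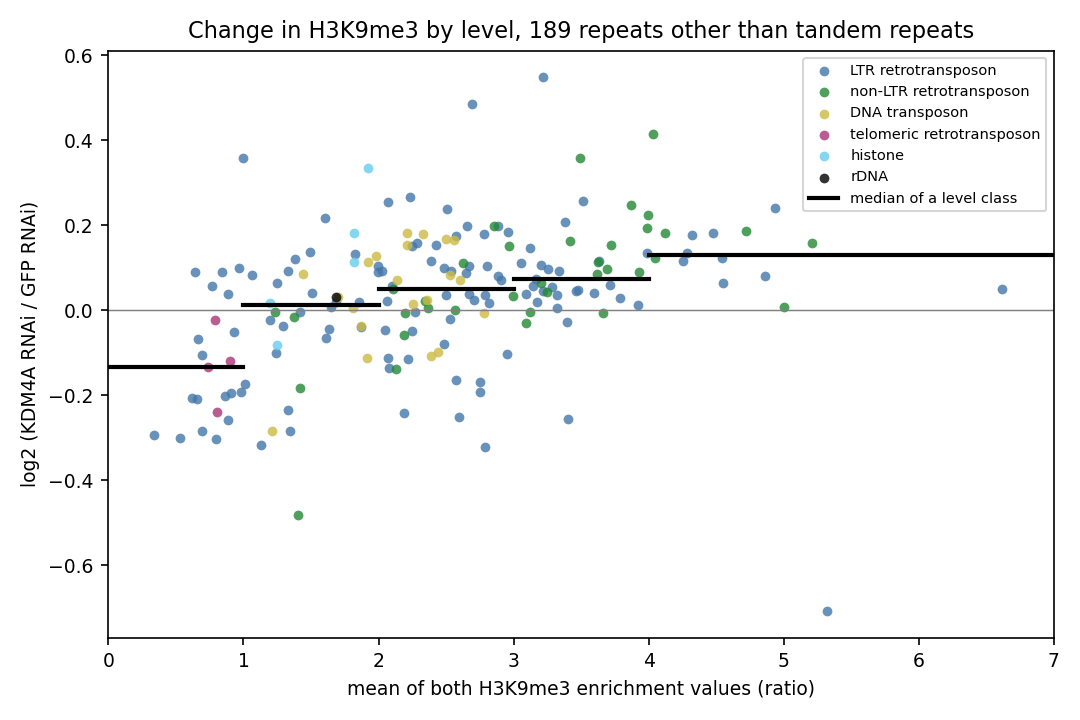
Log2 ratio of KDM4A RNAi over GFP RNAi against the mean of both H3K9me3 enrichment values (ratio) for the 189 rows that are not tandem repeats, coloured by type. Black bars are the medians of 5 level classes, which step from -0.13 under a level of 1 to 0.13 at 4 or more.

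The repeats lay further apart after KDM4A RNAi. A log2 ratio that rises with level widens the spread by arithmetic, so this is no separate support for the order by level. The middle 50% of all rows reached from 1.48 to 3.12 with GFP RNAi and from 1.37 to 3.26 with KDM4A RNAi. Without the tandem repeats it reached from 1.64 to 3.12 and from 1.65 to 3.28, so the lower end was not lower, and the interquartile range of the log2 levels widened by 0.06 in place of 0.17. The standard deviation of the log2 levels was 0.95 and 1.02 over all rows, 0.81 and 0.87 over LTR rows, 0.48 and 0.59 over non-LTR rows and 0.28 and 0.33 over DNA transposons. The number of rows above an enrichment of 1 hardly differed, at 172 and 171. AATAT and DM412_LTR moved above 1, and AACAC, MDG1_LTR and ROO_I to below it.

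Both parts of an LTR element come from the same inserted copies or from their solitary remains, so they show how far 2 rows of 1 family can differ. In 56 elements with both parts, both were higher in 26 and both lower in 6, the internal part alone was higher in 16 and the terminal repeat alone in 8. Internal parts were higher at 42 of 56 and terminal repeats at 34 of 56, against 64.5% of all rows. The log2 ratio was larger in the internal part in 28 elements and in the terminal repeat in the other 28. Terminal repeats scattered more, with a standard deviation of their log2 ratios of 0.21 against 0.13. Past 1.2 times were 9 of 56 terminal and 3 of 56 internal rows, against 12.3% of all rows.

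The size of the difference between the log2 ratios of both parts had a median of 0.15. The median size of the log2 ratio itself, whatever its sign, was 0.10 over the LTR rows, and a difference of 2 ratios carries the scatter of both. GYPSY8 had the most unlike parts, since GYPSY8_I was at 6.50 and 6.73 while GYPSY8_LTR was much lower. GYPSY11_I was at 1.90 and 1.85 beside the higher GYPSY11_LTR. DM412_I was at 0.923 and 0.803 beside the higher DM412_LTR, GYPSY5_I at 1.48 and 1.72 beside the lower GYPSY5_LTR, and DM1731_I was slightly higher beside the lower DM1731_LTR. The internal part was the more enriched one in 38 elements with GFP RNAi and in 37 with KDM4A RNAi. Over all 56 elements the median ratio of the internal to the terminal level was 1.17 and 1.2. The more enriched part was the same in both treatments in 51 of 56 elements. At a level of 3 or more, 23 of 23 internal and 9 of 12 terminal rows were higher. Of all rows at that level, these included, 53 of 60 were higher, or 51 of 57 without the tandem repeats.

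**Figure D5:**
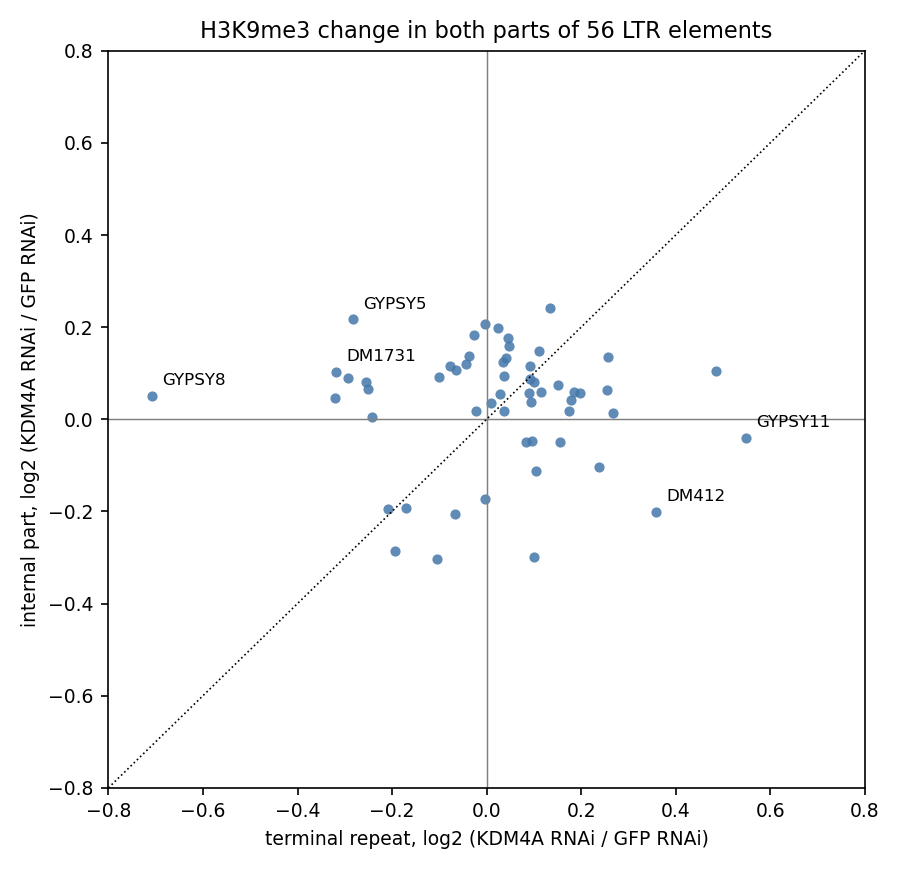
Log2 ratio of H3K9me3 enrichment, KDM4A RNAi over GFP RNAi, in the terminal repeat (horizontal) and internal part (vertical) of 56 LTR elements, with a dotted line where both are equal. The points spread more along the horizontal axis than along the vertical one, and the 5 elements whose parts differed most are named.

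H3K36me3, a mark of transcribed gene bodies, was measured over 199 repeats in the same treatments. Both marks may draw on the same input libraries, which the sources do not state, so only the values are set side by side. The share of all H3K36me3 rows that were higher or lower is not given here. At I_DM, where H3K9me3 was lower, H3K36me3 was at 0.629 with GFP RNAi and 0.550 with KDM4A RNAi. At G6_DM, where H3K9me3 was higher, it was at 0.683 and 0.774, and at MAX_LTR 1.10 and 1.21. H3K36me3 was higher together with H3K9me3 at GYPSY11_LTR (0.688 and 1.07), R1-2_DM (0.904 and 1.11) and FROGGER_LTR (0.750 and 0.864), and lower together with it at GYPSY3_LTR (0.938 and 0.627). At the satellites with much lower H3K9me3, H3K36me3 was at 0.896 and 0.911 (AAGGAG) and at 0.359 and 0.512 (AAGAC). It was at 0.268 and 0.306 at AACAC and at 0.159 and 0.186 at AAACAC. DM412_LTR (0.591 and 0.597), BLOOD_I (1.39 and 1.39), STALKER2_I (0.912 and 0.919), Gypsy1-LTR_DM (0.668 and 0.671) and MDG1_I (0.966 and 0.950) had nearly equal H3K36me3 beside H3K9me3 differences past 1.2 times. DM1731_LTR was at 1.03 and 0.951, GYPSY5_LTR at 1.10 and 0.961 and POGON1 at 1.27 and 1.23. AATAT, with higher H3K9me3, had lower H3K36me3 (0.230 and 0.202), and AAGAGG, with lower H3K9me3, had higher H3K36me3 (0.143 and 0.225). Both marks were higher at undeca (H3K36me3 of 0.607 and 0.699), His3 (0.680 and 0.746) and AATAG (0.037 and 0.060). GYPSY8_LTR has no row in the H3K36me3 table.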

How the data were processed

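ChIP-seq of H3K9me3 was analysed in S2 cells after RNAi against GFP or KDM4A. Chromatin was crosslinked with 1% paraformaldehyde for 10 min and sheared in 30 cycles, per the labels. The deposited values are linear enrichment ratios, a mean per treatment per the file headers, with 3 decimals. The submitters' processing notes list Bowtie and MACS2, with neither role nor version. Not given in the sources used here are the build, the denominator, the depth scaling, the handling of reads that map to many copies and the libraries behind each mean. Which copies a ratio averages over is therefore unknown.

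The log2 ratio of the 2 means was computed with no pseudocount (Python 3.11.15, numpy 2.4.6, scipy 1.17.1), and the functions were tested on simulated data. The planned limma fit needs a value per library and was not possible. A row was called at 1.2 times, with 1.5 as an alternative. Rounding moves a log2 ratio by at most 0.008. Families followed lists of element names, and 10 transposon rows are in none. Members and lists were chosen with earlier results of these data known. The naming rule took all tandem, telomeric, histone and ribosomal DNA rows, the 10 transposon rows with the largest ratios each way, the 5 highest and 5 lowest levels, the extremes of each list and the 5 elements with the most unlike parts. Other rows named (further members of a list, rows near 1.2 times, and rows that crossed 1 or the highest 20) were chosen after their values were seen. Long satellite units are given by name.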

Additional observations from a re-analysis of the deposited data

How the results depend on the processing

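No paired analysis was possible because the table holds 1 mean per treatment, which also bars leaving out a replicate. With no replicate spread to set them against, only the values are listed; the cause was not tested unless a setting only removes rows, raises the fold or shifts all values. The choices of level ordering, of leaving the tandem repeats out of the level classes and of rescaling named repeats were made after seeing the data. The median log2 ratio of all repeats (0.043) became 0.012 with columns divided by their medians, 0.028 with a pseudocount of 1, 0.000587 as a mean and 0.086 at or above the median level. At or above the median level 84 rows were higher and 18 lower. Rows past 1.2 times (10 higher, 15 lower) numbered 9 and 22 with columns divided by their medians, 1 and 5 at 1.5 times, 5 and 3 at or above the median level, and 5 and 6 with a pseudocount of 1. Dividing columns by their medians lowers every log2 ratio by 0.031. It gave medians of 0.015 (LTR), 0.043 (non-LTR), 0.040 (DNA), 0.083 (histone), 0.000101 (ribosomal DNA), -0.104 (tandem) and -0.157 (telomeric). By list it gave 0.00685 (Gypsy superfamily), 0.023 (gypsy-named), 0.061 (invader), 0.022 (BEL/Pao), 0.058 (Copia), -0.116 (cultured-cell families), 0.023 (Jockey), 0.103 (G), -0.034 (Doc), -0.301 (I clade), 0.157 (R1 clade), 0.042 (Protop), -0.052 (Tc1-mariner), 0.053 (Transib) and -0.140, -0.511 and -0.175 for satellites with purine-only, other and no given units. A pseudocount of 1 gave 0.033 (LTR), 0.057 (non-LTR), 0.048 (DNA), 0.074 (histone), 0.019 (ribosomal DNA), -0.018 (tandem) and -0.057 (telomeric). Means were 0.018 (LTR), 0.040 (DNA) and -0.395 (tandem). At or above the median level the medians were 0.075 (LTR) and 0.113 (non-LTR). The tandem repeats reversed to 0.234, the value of dodeca, because the low ones are removed. Only AAGGAG (-2.58), undeca (0.53) and dodeca remain, so this value describes no common direction. With 1 value per element the medians were 0.033 (Gypsy superfamily), 0.103 (invader), 0.087 (BEL/Pao), 0.017 (Copia) and -0.098 (cultured-cell families). The median log2 difference of internal minus terminal parts (0.004) was 0.031 in the 22 elements with both parts at or above the median level and 0.011 as a mean, and its median size (0.150) was 0.140 and 0.189. The widening of the interquartile range of log2 levels (0.169) was 0.062 without the tandem repeats, and 0.069 as a standard deviation. The median log2 ratio at a level of 4 or more minus that under 1 (0.250) was 0.229 with rows ordered by GFP RNAi level alone, 0.300 by KDM4A RNAi level alone and 0.262 without the tandem repeats. At 52 of 106 named repeats adding 1 to both values, which always draws ratios toward 0, left a log2 ratio more than 1.5 times smaller, such as AAACAC (-1.47 to -0.47), AACAC (-1.32 to -0.74) and AATAG (0.82 to 0.16). Of single named repeats the directions that reversed, all when columns were divided by their medians, were those of G7_DM (-0.0226), His1 (-0.0138), PROTOP_B (-0.00685), FW (-0.0240), DOC (-0.0302), MAX_I (-0.0171) and ACCORD2_LTR (-0.00218). The depth behind every value is unknown.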
